A study of Homo sapiens with 9 samples.

Results

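Coagulation, fibrinogen and complement proteins form plasma cascades that the liver largely makes and secretes. For a description of ribosome footprints in Huh-7 cells treated with compounds that stall translation, 45 genes were listed by symbol. They were chosen with no threshold on their values but with earlier results of these data known. Most encode proteins of these cascades, while GGCX, VKORC1, LMAN1 and MCFD2 serve their processing and export and F2RL1 is a cell surface receptor. Huh-7 is a human hepatocellular carcinoma line that keeps much of the secretory programme of hepatocytes. Cells were given PF8503 (PF-06378503) or PF846 at 1.5 μM, or the vehicle, 0.5% DMSO, and all were harvested after 1 hr, with 3 biological replicates per condition and 9 libraries in total. In ribosome profiling, the stretches of mRNA covered by ribosomes survive nuclease digestion and are sequenced, so a value here measures ribosomes on a coding sequence and not the amount of protein. The values used are the authors' means over the libraries of a condition, in read counts divided by size factors ("normalized counts"), so replicate error and library depth are both unknown here and none of the differences below was tested. The step of the study's scripts that counts reads names replicate numbers that differ in part from the labels, and it is therefore uncertain which libraries each mean covers. The library names end in what reads as a sequencing lane number, and no such number is shared between conditions, so an effect of lane cannot be told apart from one of treatment. Of the 45 genes, 32 had a row in the PF8503 table of 9157 transcripts, 30 of these also had one in the PF846 table of 8839, and 13 had a row in neither.

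Both cascades are chains of proteases that are made as inactive precursors and cleave each other in turn. In coagulation, the contact and tissue factor routes converge on factor X, which activates prothrombin (F2), and thrombin then cleaves fibrinogen into fibrin. Several of these factors need vitamin K dependent gamma-carboxylation in the endoplasmic reticulum before they are secreted. In complement, the classical, lectin and alternative routes converge on cleavage of C3, followed by C5 and assembly of the membrane attack complex. PF8503 and PF846 act on ribosomes that are making particular nascent chains, often near the amino terminus, and nearly all of the proteins described here begin with a signal sequence for export.

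The starts of coding sequences are shown for the 3 transcripts with the lowest and the 3 with the highest ratio of PF8503 to vehicle, because the amino-terminal codons are the stretch in which such stalls are often placed. Each runs 5′ to 3′ over 90 bases, or 30 codons, of the canonical GENCODE version 44 transcript on GRCh38. The first 10 codons are in lower case, and capitals mark codons that the authors' count takes in where no stall position was called further 3′. The transcript model is newer than that of the authors, who used version 24, and may differ from it.
CFI: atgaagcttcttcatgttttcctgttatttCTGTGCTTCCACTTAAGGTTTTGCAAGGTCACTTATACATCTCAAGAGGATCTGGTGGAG
FGA: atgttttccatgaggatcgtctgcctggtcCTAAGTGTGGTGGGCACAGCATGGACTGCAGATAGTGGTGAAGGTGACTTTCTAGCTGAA
F13B: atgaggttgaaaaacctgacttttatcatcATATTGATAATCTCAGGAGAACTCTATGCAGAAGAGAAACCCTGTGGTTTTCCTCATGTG
C4BPB: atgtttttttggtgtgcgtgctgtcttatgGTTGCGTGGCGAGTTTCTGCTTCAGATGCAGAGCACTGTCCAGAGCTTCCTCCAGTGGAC
C8A: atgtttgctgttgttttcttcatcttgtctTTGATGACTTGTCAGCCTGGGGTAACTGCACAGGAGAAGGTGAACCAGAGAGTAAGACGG
C1R: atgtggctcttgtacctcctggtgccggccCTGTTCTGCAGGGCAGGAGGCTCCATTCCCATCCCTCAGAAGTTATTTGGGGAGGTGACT

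Among these stretches, CFI has 7 leucine codons, FGA 3 and F13B 4, and C4BPB has 2, C8A 2 and C1R 6. The mean Kyte-Doolittle hydropathy of residues 2 to 30, a scale on which hydrophobic residues are positive, was 0.66 for CFI, 0.82 for FGA, 0.53 for F13B, 0.52 for C4BPB, 0.36 for C8A and 0.92 for C1R. The ranges of the lower and the higher transcripts overlapped in both features, for leucine codons through C1R alone. Whether either feature goes with the ratio was not tested, since these transcripts were picked by that ratio. Over the 32 measured genes the median hydropathy was 0.67, against -0.37 over the 8653 transcripts of the PF8503 table with a matched sequence, and 30 of the 32 lay above the latter. The exceptions were GGCX, the carboxylase of the endoplasmic reticulum membrane, at -0.82 and C4BPA at -0.99, and the value of C4BPA holds for the newer transcript model, which may start at another codon.

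The cells were checked against hepatocyte genes. All 8 of the hepatocyte markers had a row, with AFP (alpha-fetoprotein, typical of hepatoma) and ALB (albumin) at ranks 1 and 2 of vehicle means in the PF8503 table. The remaining hepatocyte markers stood between rank 4 (APOB) and rank 1712 (SERPINA1, at 1296 normalized counts). Of 9 markers of other cell types, 3 had a row. These were CD68 at 889 normalized counts (rank 2428), KRT19 at 292 (rank 5464) and PECAM1 at 170 (rank 6939). PTPRC, CDH5, COL1A1, COL1A2, DCN and KRT7 had none. The 8 hepatocyte markers also belong to a longer list of 34 proteins that hepatocytes secrete, of which 25 had a row. Those without one included HP, SERPINA3 and PON1. Outside a window of chromosome 6 described below, 47.6% of 19313 protein-coding genes had a row.

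In vehicle-treated cells the 32 transcripts together held 81713 normalized counts in the PF8503 table, or 0.777% of its total, and the level spanned from 48.6 (MBL2) to 26502 (C3). Compared per length, as vehicle normalized counts per 100 counted codons, FGB stood first at 2374, followed by C3 at 1613, FGA at 1234 and FGG at 1096. TFPI and F2 came next at 768 and 724, and FGL1, CFI, MCFD2 and LMAN1 lay close together between 503 and 551. At the other end were C1S (25.8), MBL2 (21.3), C1R (18.3), C8A (17.5), C8B (16.8), F13B (12.3) and F11 (9.24). Without single libraries it cannot be said which neighbours in this order differ beyond their spread. Fibrinogen and C3 thus made up the top of the order, while the initiating C1 proteases, C8 chains and the factor XIII carrier were near its bottom.

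**Figure D1:**
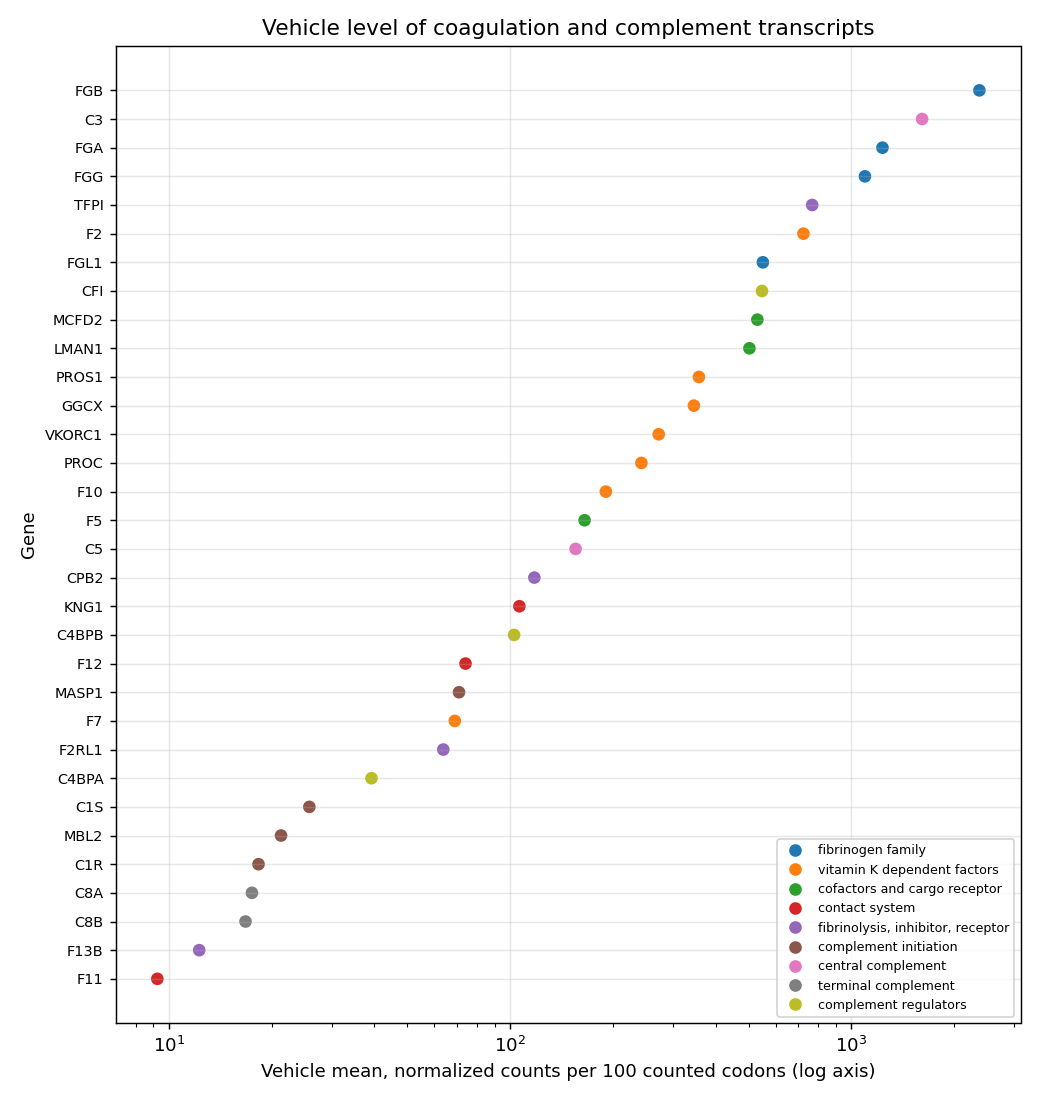
Vehicle level of the 32 measured coagulation and complement transcripts, as the authors' vehicle mean in normalized counts per 100 counted codons on a log axis, with points coloured by role. FGB (2374) and C3 (1613) are highest and F11 (9.24) is lowest.

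Most of the measured transcripts had compound means close to the vehicle mean. The median log2 ratio of the compound mean to the vehicle mean was -0.027 over 32 genes with PF8503, against 0.013 over all transcripts, and -0.026 over 30 genes with PF846, against 0.00086. With PF8503, 2 of 32 were at or under -0.25 on the log2 scale (CFI and FGA), or 6.25%, where 4.23% of all transcripts were, and 3 were at or over 0.25 (C1R, C8A and C4BPB), or 9.38%, where 3.79% of all transcripts were. With PF846, 0 of 30 passed this fold in either direction, where 2.13% of all transcripts were lower and 1.66% higher. CFI, at -0.245, was just inside it. These shares rest on 2 and 3 genes, and the means used here allow no test of whether they differ from those of the whole tables. Summed over the genes, the normalized counts went from 81713 with vehicle to 80302 with PF8503, and from 74699 to 74544 with PF846.

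The signs were less even than the sizes. With PF846, 24 of the 30 log2 ratios were below 0, or 80.0%, against 49.7% of all transcripts, and with PF8503 18 of 32 were, or 56.2%, against 45.3%. With PF846, 14 of 20 further genes of the same pathways (70.0%) and 19 of 25 other proteins secreted by hepatocytes (76.0%) were below 0 as well. The 24 values were small, since all but CFI (-0.245) and C8B (-0.212) lay above -0.11. Both tables share their vehicle libraries, which leaves the 2 sets of signs dependent on each other. Low transcripts scatter more than high ones: in the PF8503 table the central 95% of log2 ratios ran from -0.39 to 0.39 in the quintile with the lowest vehicle means and from -0.28 to 0.18 in the quintile with the highest, and in the PF846 table from -0.30 to 0.31 and from -0.14 to 0.12. Set against the range of their own quintile, a criterion chosen after the values were seen, 3 of 32 transcripts lay outside with PF8503 (CFI, FGA and C4BPB), where 5.02% of all did, and 1 of 30 with PF846 (CFI), where 5.09% did.

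**Figure D2:**
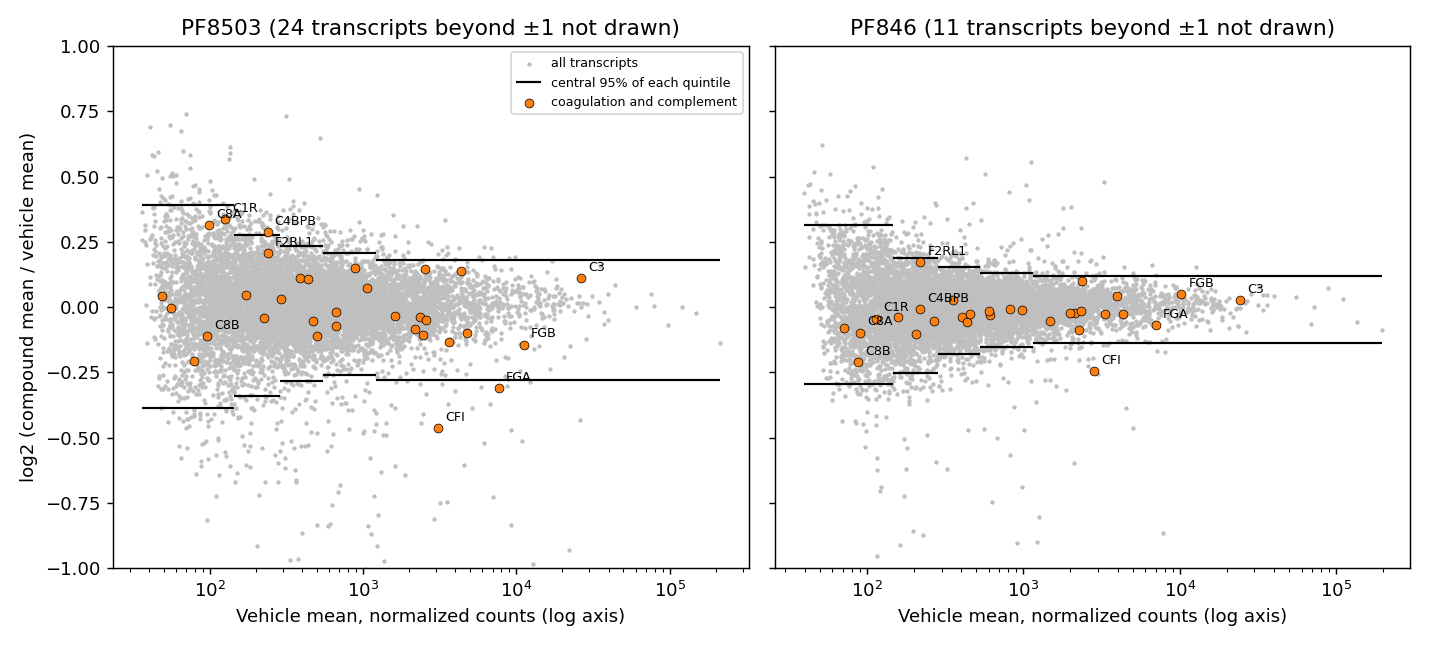
Log2 ratio of the compound mean to the vehicle mean against the vehicle mean (log axis), for every transcript (grey) and for the coagulation and complement transcripts (orange), with PF8503 on the left and PF846 on the right. Black lines bound the central 95% of each quintile of vehicle mean; CFI lies under the lower line in both panels, at -0.46 and -0.25, while C1R and C8A lie inside the wider range of the lowest quintile.

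The region counted was the same for both compounds in all 30 transcripts with a row in both tables. The vehicle means of the PF8503 table stood to those of the PF846 table at the constant ratio of 1.09, within 0.002 on the log2 scale, for each of them, whereas 134 of the 8775 transcripts in both tables departed from it. For the 30 transcripts, the values of the compounds can therefore be set side by side without a difference in the codons counted. The shares given for all transcripts include the 134, for which the codons counted differed between the compounds. The log2 ratio with PF8503 minus that with PF846, in which the vehicle cancels apart from this constant, had a median of 0.027 over the 30 transcripts and 0.011 over all. None of the 30 was at or under -0.25, where 3.56% of all were, and 3 were at or over 0.25, where 3.04% of all were. These 3 were C8A (0.41), C1R (0.38) and C4BPB (0.30), and the most negative differences were those of FGA (-0.24), CFI (-0.22) and FGB (-0.19). Whether the compounds differ on any of them was not tested, and no interval can be given.

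**Figure D3:**
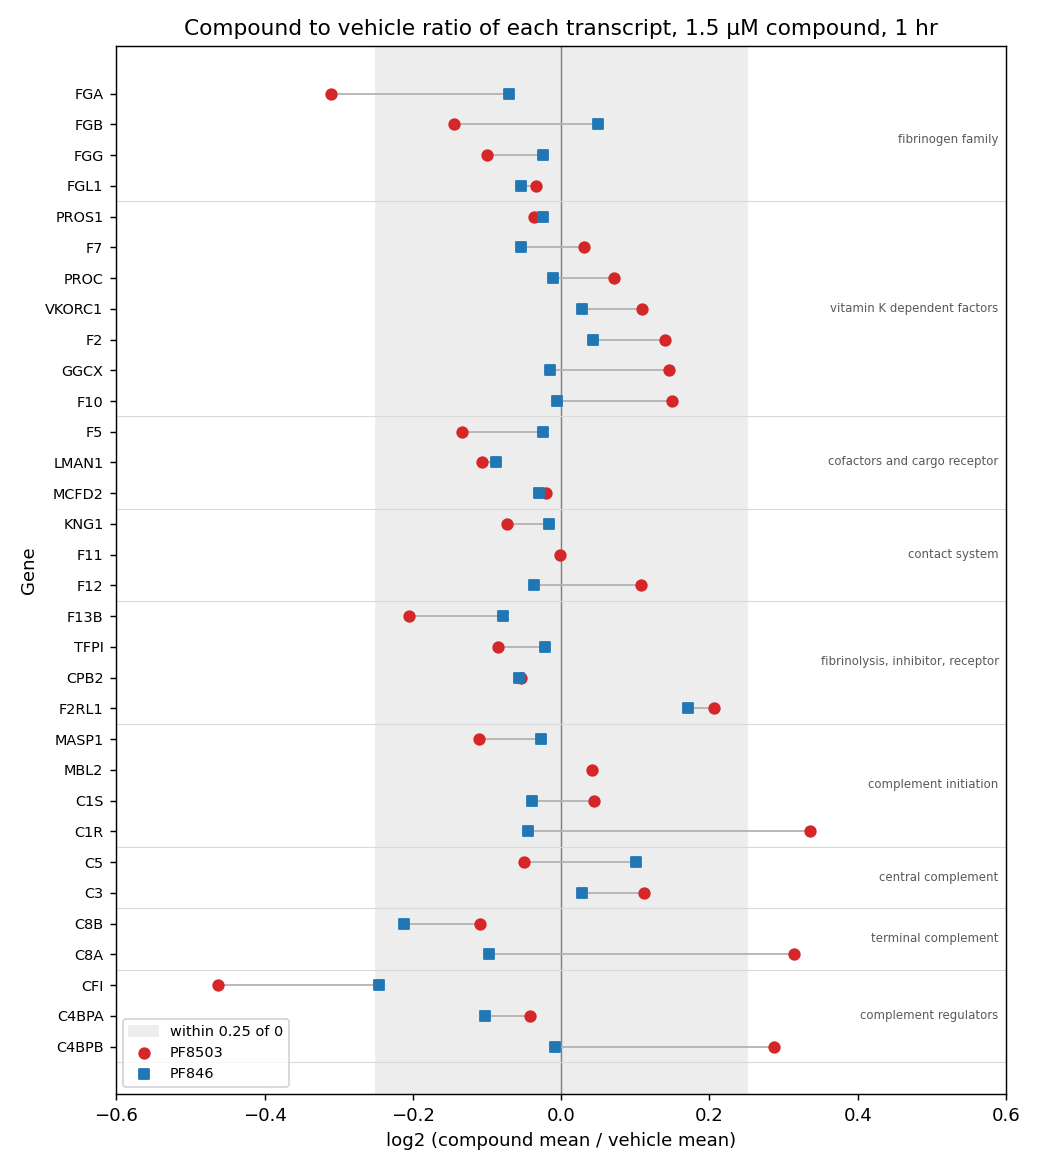
Log2 ratio of the compound mean to the vehicle mean for each measured transcript, with PF8503 as red circles and PF846 as blue squares, grouped by role. The grey band marks values within 0.25 of 0; CFI and FGA lie left of it and C1R, C8A and C4BPB right of it, all with PF8503, and no PF846 value leaves it.

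CFI, complement factor I, is the serine protease that cleaves C3b and C4b and so holds the cascade in check, and it was the lowest of the set with both compounds. Its gene, with 583 codons in 13 exons, spans 109731008 to 109802150 of chromosome 4 and is read from the reverse strand. The authors' mean was 3081 normalized counts with vehicle and 2235 with PF8503, a log2 ratio of -0.46 or a change of -27.5%, and 112 of 9157 transcripts were lower still. In the PF846 table the means were 2820 and 2380, a log2 ratio of -0.245 or a change of -15.6%, with 199 of 8839 transcripts lower. CFI is abundant, and its 2 compound means were both below the vehicle mean. That mean rests on the same vehicle libraries in both tables, so the 2 ratios are not independent.

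C4BPA and C4BPB encode the chains of C4b-binding protein, the cofactor with which factor I cleaves C4b. The genes lie side by side on chromosome 1, 4239 bases apart. C4BPB went from 238 to 291 normalized counts with PF8503 (log2 ratio 0.29) and from 218 to 217 with PF846 (-0.0078). C4BPA went from 226 to 220 with PF8503 (-0.042) and from 207 to 193 with PF846 (-0.10). The beta chain was thus higher and the alpha chain near the vehicle level with PF8503, and the log2 ratio of the alpha chain minus that of the beta chain was -0.33 there and -0.095 with PF846. Of the 3 regulators measured, 1 was past the fold in each direction with PF8503 and 0 with PF846. Of all transcripts, 4.23% were past it on the lower and 3.79% on the higher side with PF8503. With PF846 these shares were 2.13% and 1.66%.

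Fibrinogen is a hexamer with paired chains encoded by FGA, FGB and FGG, which form a cluster on chromosome 4 between 154563011 and 154612967. All 3 were below vehicle with PF8503, where 45.3% of all transcripts were. FGA, at 154583126 to 154590742 and 644 codons in the annotation used, went from 7701 to 6210 normalized counts, a log2 ratio of -0.31 or a change of -19.4%, and 252 of 9157 transcripts were lower. FGB went from 11182 to 10120 (-0.14) and FGG from 4748 to 4429 (-0.10). FGA thus had the lowest ratio of the chains, and its share of the counts of all 3 was 32.6% with vehicle and 29.9% with PF8503.

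With PF846 the chains were closer to vehicle. FGA went from 7049 to 6714 (-0.070), FGB from 10236 to 10595 (0.050) and FGG from 4346 to 4271 (-0.025), and the share of FGA was 32.6% with vehicle and 31.1% with PF846. FGA had the lowest log2 ratio of the chains with this compound too. FGL1, a secreted fibrinogen-like protein that is not part of the clot, went from 1608 to 1570 with PF8503 (-0.034) and from 1472 to 1418 with PF846 (-0.054). Of the 4 genes of this family, 1 was past the fold, on the lower side, with PF8503 and 0 with PF846. Of all transcripts, 4.23% were past it on that side with PF8503 and 2.13% with PF846.

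All 7 measured genes of vitamin K dependent clotting were inside the fold with both compounds. So were 8423 of all 9157 transcripts with PF8503 and 8504 of 8839 with PF846. With PF8503 the log2 ratios of the 7 ran from -0.037 (PROS1, protein S, the cofactor of activated protein C) to 0.15 (F10). Of the 7, 6 were above 0, where 5010 of all 9157 transcripts were. Prothrombin, F2, went from 4359 to 4801 normalized counts with PF8503 (0.14) and from 3989 to 4110 with PF846 (0.043). F10 went from 893 to 990 (0.15) and from 817 to 814 (-0.0062). The anticoagulant protease gene PROC went from 1069 to 1124 (0.072) and from 979 to 972 (-0.010), and F7, which starts the tissue factor route, from 292 to 298 (0.031) and from 267 to 257 (-0.054).

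The enzymes that serve these factors were measured as well. GGCX, which carboxylates them, went from 2551 to 2821 normalized counts with PF8503 (0.15) and from 2335 to 2310 with PF846 (-0.016). VKORC1, the reductase that regenerates vitamin K and is the target of warfarin, went from 390 to 421 (0.11) and from 357 to 364 (0.028). Substrates and enzymes had a median log2 ratio of 0.11 with PF8503 and -0.010 with PF846. PROS1, the lowest of them with PF8503, had means of 2346 and 2286 there and of 2147 and 2111 in the PF846 table (-0.025). No row was found for F9 or PROZ.

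Factor V and its export machinery were all slightly below vehicle, where 45.3% of all transcripts were with PF8503 and 49.7% with PF846. F5, the cofactor of factor Xa, went from 3643 to 3320 normalized counts with PF8503 (-0.13) and from 3334 to 3278 with PF846 (-0.025). LMAN1, the lectin that carries factors V and VIII from the endoplasmic reticulum to the Golgi, went from 2463 to 2287 (-0.11) and from 2255 to 2121 (-0.088). Its partner MCFD2 went from 668 to 659 (-0.020) and from 612 to 599 (-0.030). All 6 values are inside the fold, as were 8423 of 9157 transcripts with PF8503 and 8504 of 8839 with PF846. F8 had no row.

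In the contact system, which starts clotting on negatively charged surfaces, F12 went from 440 to 474 normalized counts with PF8503 (0.11) and from 403 to 393 with PF846 (-0.036). KNG1, high molecular weight kininogen, went from 664 to 631 (-0.073) and from 608 to 601 (-0.016). F11 had a row in the PF8503 table only, with 55.9 and 55.8 (-0.0020), and KLKB1 had none.

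Among genes of clot stabilisation and fibrinolysis, F13B, the carrier subunit of the transglutaminase that cross-links fibrin, had 78.6 normalized counts with vehicle and 68.2 with PF8503 (-0.21), and 72.0 and 68.2 in the PF846 table (-0.078). CPB2, which protects fibrin from plasmin, went from 475 to 457 (-0.054) and from 434 to 417 (-0.057). TFPI, the inhibitor of the tissue factor route, went from 2181 to 2057 (-0.085) and from 1997 to 1966 (-0.022). F2RL1, a protease-activated receptor of the cell surface and not a secreted protein, had the highest log2 ratio of the whole set with PF846, at 0.17 (220 to 247), and 0.21 with PF8503 (240 to 277). None of these 4 was past the fold, and PLG had no row. Of all transcripts, 8423 of 9157 were inside it with PF8503 and 8504 of 8839 with PF846.

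C3 was the largest single contributor, with 26502 normalized counts in vehicle and 28649 with PF8503 (0.11), and 24258 and 24725 in the PF846 table (0.027). C5, its homologue at the head of the terminal pathway, went from 2576 to 2488 (-0.050) and from 2358 to 2528 (0.10). The 2 central components that were measured therefore stayed within 0.12 of 0 with both compounds.

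C1R and C1S encode the proteases of the C1 complex and lie 9181 bases apart on chromosome 12. C1R went from 125 to 158 normalized counts with PF8503, a log2 ratio of 0.34 or a change of 26.2%, the highest of the set, with 116 of 9157 transcripts higher still. In the PF846 table it had 115 and 111 (-0.044). C1S went from 172 to 178 (0.044) and from 158 to 153 (-0.040). In the lectin route, MASP1 went from 501 to 464 (-0.11) and from 459 to 450 (-0.027). MBL2, which encodes the mannose-binding lectin, had 48.6 and 50.0 (0.041) in the PF8503 table only, and MASP2 had no row. Of the 4 genes of complement initiation measured with PF8503, 1 was past the fold, on the higher side, and 3 were within it. Of all transcripts, 3.79% were past it on that side with PF8503.

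C8A and C8B, neighbours on chromosome 1 that encode chains of the same C8 molecule, were among the lowest transcripts of the set per length and stood apart from each other. C8A went from 98.7 to 123 normalized counts with PF8503 (0.31) and from 90.4 to 84.5 with PF846 (-0.097). C8B went from 95.7 to 88.7 (-0.11) and from 87.6 to 75.6 (-0.21). The log2 ratio of C8A exceeded that of C8B by 0.42 with PF8503 and by 0.11 with PF846. All 4 values lie inside the central 95% of transcripts of the lowest quintile of vehicle mean. C6, C8G and C9 had no row.

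The 13 genes without a row were F9, PROZ, F8, KLKB1, PLG, MASP2, C2, C4A, C4B, CFB, C6, C8G and C9, and none of them is described as untranslated here, since a row required more than 30 counts and reads with a single position. C4A and C4B shared 95.9% of the 30-base windows of their coding sequences, whereas C2 and CFB shared 0 of 2227. All 4 of these genes lie on chromosome 6 between 31897785 and 32035418. In a window from 31000000 to 33000000 around them, chosen after their absence was seen, 1 of 92 protein-coding genes of GENCODE version 44 had a row (APOM), or 1.09%, against 48.2% of the 921 on the rest of chromosome 6. BAG6, CSNK2B and CLIC1, which most cells express and which lie in the same window, had none either. Why the window holds almost no rows was not tested.

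Further genes of the same pathways, which are no part of the 45, were set beside them. Of 53 such genes 20 had a row in each table, with a median log2 ratio of 0.058 with PF8503, where 7 were below 0, and -0.027 with PF846. Only CD55 was at or under -0.25 with each compound, or 5.0%, against 4.23% of all transcripts with PF8503 and 2.13% with PF846. At or over 0.25 were 0, against 3.79% and 1.66%. CD55 is a membrane anchored protein that dissociates complement convertases, and it went from 78.9 to 59.4 normalized counts with PF8503 (-0.41) and from 72.2 to 57.0 with PF846 (-0.34). CD46, a further cofactor of factor I, had log2 ratios of -0.035 with PF8503 and -0.017 with PF846. Of 34 other proteins that hepatocytes secrete, 25 had a row. With PF8503, 4 were at or under -0.25 (AMBP, APOH, APOA2 and GC), or 16.0%, against 4.23% of all transcripts. With PF846, 1 was, or 4.0%, against 2.13%. The vehicle means of AMBP, APOH and APOA2 departed from the constant ratio, so other codons were counted for 1 compound, unlike for the genes described above. The list of 34 holds AMBP and APOH, which were already known to be lower with PF8503 in these libraries. Its count is therefore no independent background, and the difference between the lists was not tested.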

How the data were processed

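Ribosome profiling libraries of Huh-7 cells (3 per condition) were processed by the study. After adapter removal with the FASTX toolkit, the authors aligned reads with Bowtie to GENCODE version 24 canonical coding transcripts (GRCh38) and kept reads with 1 position. Reads were counted 3′ of DMax, the codon of greatest cumulative difference from vehicle, for transcripts with a Z score of 2 or more, and otherwise from 10 codons after the start, in both cases ending 10 codons before the end. The deposited values are a signal: for each condition, the authors' mean of counts divided by DESeq size factors. Versions of Bowtie and DESeq are not given in the sources used here. The deposited columns of fold changes and p-values were not used.

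From these means, log2 ratios were computed with no pseudocount, and 0.25 was taken as the fold. Pooled means allow no test here, and depth per library is unknown. Densities used GENCODE version 44 codons less 20, as for a transcript without DMax. Of 9221 symbols, 8710 (94.5%) matched a coding sequence. Alternatives were folds of 0.2 and 0.5, centring, a pseudocount of 10, a vehicle mean of at least 100, equal regions, omission of C4A and C4B, and quintile ranges. The genes and lists were chosen with earlier results of these data known. Genes were named by role group if past the fold, among the 3 highest vehicle means or at the extremes, and the remaining measured genes were added after their values were seen. Steps were checked on simulated data, the fold with counting noise alone and with a change larger than those described here. That check does not cover calls near 0.25. Software was Python 3.11.15, numpy 2.4.6, pandas 2.3.3, matplotlib 3.10.9 and biopython 1.88.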

Additional observations from a re-analysis of the deposited data

How the results depend on the processing

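With PF8503, a fold of 0.5 left 0 of the 2 lower and 0 of the 3 higher transcripts, and the range of the quintile, added after the values were seen, left 1 higher transcript, C4BPB. With PF846, against 0 lower transcripts at 0.25, a fold of 0.2 gave 2, CFI and C8B, and the range of the quintile gave 1, CFI. Shares of all transcripts at folds of 0.2 and 0.5 were not computed, so these counts cannot be set against the whole tables. Under every other alternative run, the counts were within 1.5 times the main ones. For PF8503 the median log2 ratio over the genes ranged from -0.040 to -0.027, and for PF846 from -0.027 to -0.025, under centring, a pseudocount of 10, a vehicle mean of at least 100, equal regions and without C4A and C4B, the last of which changed nothing because neither gene was measured. Of 62 single log2 ratios, 62 kept their sign under centring, with a largest shift of 0.013, and 62 under the pseudocount, with a largest shift of 0.026. A minimum vehicle mean of 100 kept 27 genes with each compound.

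No paired analysis was possible because the tables hold means over libraries, and leaving out single libraries was not run for the same reason. Transcripts with low normalized counts, such as C1R and the C8 chains, are less precise than CFI, by an amount that pooled means do not give.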
